A study of Mus musculus with 9 samples.

Results

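The genes that build the Z-disc and the M-band and assemble the sarcomere were followed in mouse muscle stem cells (MuSCs). They numbered 44 of the 25655 genes counted and were chosen by name, as giant sarcomere proteins, Z-disc and M-band proteins, thin-filament capping proteins and assembly factors, with myosins, actins and troponins left out. QSCs were MuSCs taken directly, without culture, from leg muscles of male *Pax7*-YFP mice of 15 to 16 weeks, which carry YFP on both *Pax7* alleles. The cultured groups, MyoD-tdTomato low and MyoD-tdTomato high, came from MyoD-KI mice, whose MyoD locus carries tdTomato behind a self-cleaving peptide on 1 allele, on a C57BL/6 background. These MuSCs were isolated magnetically with α7-integrin beads from limb muscles at 10 to 16 weeks, kept 5 days in growth medium with serum and then parted by tdTomato fluorescence in a flow cytometer, so that both cultured groups share the allele, the culture and the sort. QSCs differed from them in mouse line, isolation and culture at once, and these cannot be told apart. The age ranges also differed. The sex of the mice behind the cultured libraries is not given, and the study used MyoD-KI mice of both sexes. Each group had 3 libraries, which the methods call technical replicates, so the p-values measure only the spread between libraries. In such bulk samples, fewer cells of a type and less RNA per cell cannot be told apart.

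As background, the sarcomere is the contractile unit of striated muscle. Z-discs anchor the barbed ends of actin thin filaments through α-actinin, M-bands crosslink myosin thick filaments at the middle, and titin spans from one to the other. During differentiation of myoblasts, precursors rich in α-actinin mature into Z-discs with the help of chaperones and capping proteins, and most of these genes are transcribed late in myogenesis, under MyoD family factors and MEF2. Several families also have a member outside striated muscle, such as *Actn1* and *Actn4* in the general cytoskeleton.

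Levels are given as CPM, counts scaled to a common library size with TMM factors, and levels of different genes are compared as TPM, which also take transcript length into account. A gene was called when the edgeR quasi-likelihood test gave a Benjamini-Hochberg adjusted p under 0.01 over all 12614 genes tested and the fold change passed 1.5. Library totals ran from 7514633 counts in QSCs replicate 2 to 26782872 in MyoD-tdTomato high replicate 2. QSCs libraries held more reads of 1503 chemosensory receptor genes, which are not muscle genes, with a mean of 0.189, 0.966 and 0.216 TPM against 0.0059 to 0.00733 TPM in the cultured libraries. *Pax7*, the defining MuSC transcript, was present in all groups, with 364, 274 and 306 CPM in the QSCs libraries, 151, 147 and 141 CPM in MyoD-tdTomato low and 67.2, 94.8 and 80.2 CPM in MyoD-tdTomato high. On the TPM scale its QSCs libraries lay nearer to the low ones, at 95.8, 78.98 and 67.6 TPM against 64.4, 66.8 and 64.00 TPM. The sum of endothelial markers was 477 to 968 CPM in QSCs libraries but 8.21 to 37.5 CPM in cultured ones. Other marker sums were also higher in QSCs, with fibroblast markers at 2004 to 2182 CPM against 404.3 to 926.4 CPM in cultured libraries. Schwann markers had 396.8 to 513.9 against 32.87 to 88.96 CPM, and myeloid markers 87.63 to 130.7 against 6.527 to 44.84 CPM.

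Promoter sequences are shown as a description, and their part in the differences between groups was not tested. RefSeq windows of 300 bases on GRCm38.p6, from 250 bases before to 50 after a gene's start, matched 33 of the 44 genes, with 39 windows. *Actn3*, *Cryab*, *Lmod3*, *Myom2*, *Myot*, *Myoz1*, *Myoz3*, *Neb*, *Tcap*, *Trim55* and *Xirp1* were not matched. The palindromic E-box CAGCTG, which MyoD family proteins can bind, was found in 14 of the 39 windows (35.9%) against 16.3% of all 32851 windows of the table. The MEF2 consensus was found in 9 windows (23.1%) against 3.19% of all, and the CArG box of serum response factor in 3 (7.69%) against 1.63%. The CArG windows belong to 2 members, *Myom1* and *Ldb3*, and the *Ldb3* windows overlap and hold the same box. Both strands were searched, and each of these motifs reads the same on both. A match is a run of letters and was not tested as a binding site. The windows of *Klhl41* (chr2:69669870-69670169, plus strand) with both an E-box and a MEF2 match, *Mybph* (chr1:134193198-134193497, plus strand) with an E-box, *Ttn* (chr2:76982498-76982797, minus strand) with a MEF2 match and *Myom1* (chr17:71019307-71019606, plus strand) with a CArG box serve as examples, written 5′ to 3′ on the gene's strand with the matches in capitals.
Klhl41: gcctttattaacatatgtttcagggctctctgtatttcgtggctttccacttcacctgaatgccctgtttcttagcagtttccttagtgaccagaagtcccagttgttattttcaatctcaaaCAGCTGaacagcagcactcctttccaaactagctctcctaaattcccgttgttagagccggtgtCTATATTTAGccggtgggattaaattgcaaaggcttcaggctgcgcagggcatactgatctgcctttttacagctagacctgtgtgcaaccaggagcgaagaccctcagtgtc
Mybph: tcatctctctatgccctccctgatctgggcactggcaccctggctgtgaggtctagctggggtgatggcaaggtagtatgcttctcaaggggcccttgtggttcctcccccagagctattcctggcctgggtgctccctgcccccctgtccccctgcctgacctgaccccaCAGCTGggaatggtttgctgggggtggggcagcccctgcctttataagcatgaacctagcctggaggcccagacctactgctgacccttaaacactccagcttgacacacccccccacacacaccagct
Ttn: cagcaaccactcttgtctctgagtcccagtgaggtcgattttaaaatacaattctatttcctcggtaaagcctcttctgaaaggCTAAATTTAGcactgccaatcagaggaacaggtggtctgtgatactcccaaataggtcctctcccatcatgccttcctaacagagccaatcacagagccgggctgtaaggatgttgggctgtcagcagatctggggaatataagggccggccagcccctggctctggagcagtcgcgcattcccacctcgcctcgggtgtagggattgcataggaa
Myom1: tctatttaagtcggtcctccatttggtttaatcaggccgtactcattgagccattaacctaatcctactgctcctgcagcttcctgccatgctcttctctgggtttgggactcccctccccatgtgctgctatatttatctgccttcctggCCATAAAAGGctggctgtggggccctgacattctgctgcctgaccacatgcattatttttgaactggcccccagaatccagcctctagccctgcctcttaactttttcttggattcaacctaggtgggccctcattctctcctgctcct
In these windows the E-box began 127 bases before the start in *Klhl41* and 79 bases before it in *Mybph*. The MEF2 match of *Klhl41* lay closer to the start, at 63 bases, than that of *Ttn*, at 166 bases, and the CArG box of *Myom1* began at 99 bases.

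The first comparison asked how the genes differ between cultured MuSCs with low and high MyoD-tdTomato. MyoD-tdTomato low cells had lower levels of 27 of the 41 members that could be tested, and none was higher. Over all genes 5.11% were called, 3.88% lower and 1.23% higher in MyoD-tdTomato low. The fitted log2 fold change was below 0 for every tested member, from -3.44 for *Xirp2* to -0.30 for *Pdlim5*, with a median of -2.52 against -0.001 over all genes. In 39 of the 41, each MyoD-tdTomato low library lay under each MyoD-tdTomato high library, against 25.7% of all genes, and the exceptions were *Myoz1* and *Tmod4*. None lay wholly above, against 20.4% of all genes. *Mybpc2*, *Myoz2* and *Myoz3* had a count of 0 in at least 1 library and were not tested. In MyoD-tdTomato low the members together made up 5811, 3831 and 4981 CPM, and in MyoD-tdTomato high 19592, 11476 and 14855 CPM.

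Many of these calls, made without a replicate block, turned on single libraries. Omission of libraries was not run with the block. Leaving out MyoD-tdTomato low replicate 3 or MyoD-tdTomato high replicate 1 left 3 called members each, leaving out MyoD-tdTomato high replicate 3 left 5, and leaving out MyoD-tdTomato low replicate 2 left 14. *Obsl1*, *Myom3* and *Xirp1* stayed called with any 1 library left out, and the adjusted p of called members in these fits reached at most 0.0484. No called member changed sign under any of the 21 other settings. With the replicate number as a block in a fit of the cultured libraries alone, 36 members were called, of 42 that could then be tested, and its p-values are given below as blocked. That fit called 24 of the 27, all but *Mybph*, *Xirp1* and *Actn2*.

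**Figure D1:**
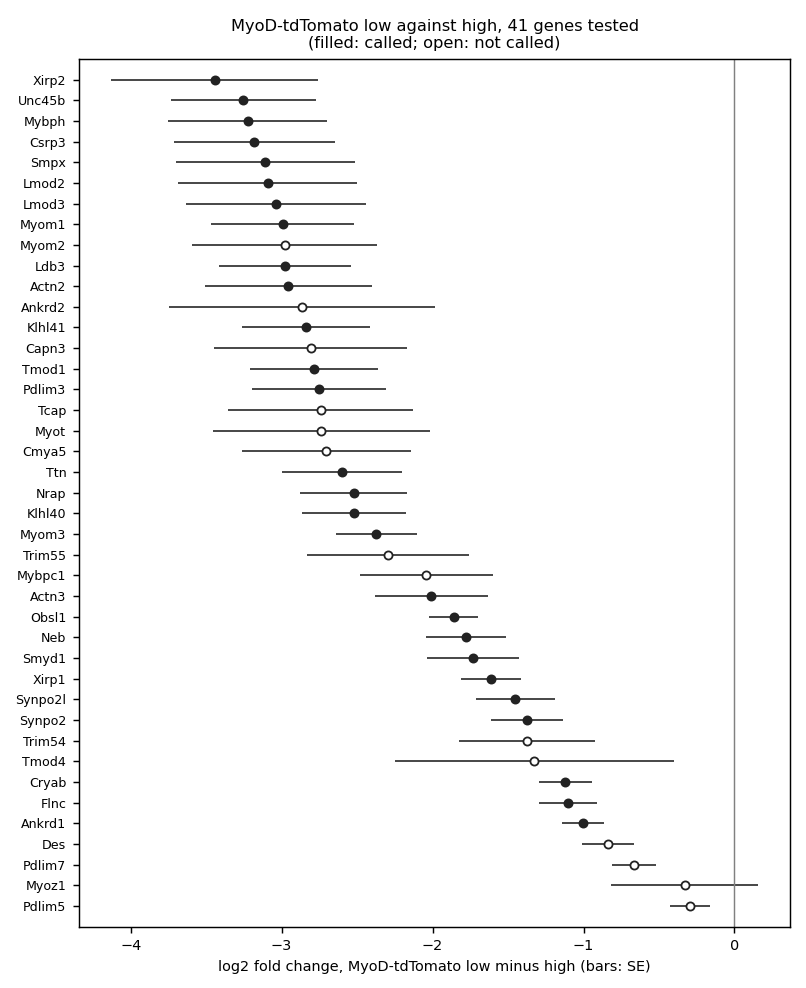
Log2 fold change of MyoD-tdTomato low minus high (x axis; bars, SE) for the 41 members tested, in order of size. All lie below 0, from -3.44 for Xirp2 to -0.30 for Pdlim5, and the 27 filled points passed the call.

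Among the giant and thick-filament proteins, 4 of 5 tested members were lower in MyoD-tdTomato low (median log2 fold change -2.04). *Ttn*, the titin gene (chr2:76534324-76812891, minus strand, GRCm39), counted 80.6, 231 and 219 CPM in the QSCs libraries, 442, 234 and 429 CPM in MyoD-tdTomato low and 2952, 1650.2 and 2102 CPM in MyoD-tdTomato high. It was 6.06-fold lower in MyoD-tdTomato low than high (log2 fold change -2.60, SE 0.40, adjusted p = 0.00272), with a gap between the highest low and the lowest high library. *Neb* encodes nebulin, a protein that runs along the thin filament, and had 49.3, 98.4 and 98.6 CPM in the QSCs libraries, 352, 281 and 347 CPM in MyoD-tdTomato low and 1460.3, 878 and 1028 CPM in MyoD-tdTomato high. The order QSCs, low, high held for *Neb* without overlap (log2 fold change -1.78, SE 0.27, adjusted p = 0.00248 for low minus high). *Obsl1*, which links titin to the M-band (chr1:75455954-75483096, minus strand), had 30.8, 28.9 and 34.6 CPM in the QSCs libraries, 142, 107 and 145 CPM in MyoD-tdTomato low and 549, 379 and 507 CPM in MyoD-tdTomato high. It kept its call in each setting tried (log2 fold change -1.86, SE 0.16, adjusted p = 0.00131). *Mybph*, a relative of myosin-binding protein C, showed one of the wider ranges, with 15.9, 25.1 and 31.1 CPM in the QSCs libraries, 117, 23.8 and 76.9 CPM in MyoD-tdTomato low and 983, 412 and 641 CPM in MyoD-tdTomato high. MyoD-tdTomato low replicate 2 stood at the level of the QSCs for *Mybph*, while the other low libraries were above all QSCs (log2 fold change -3.23, SE 0.52, adjusted p = 0.00362, blocked adjusted p = 0.0112). *Mybph* overlaps *Adora1* on the other strand, whose counts followed the same order across cultured groups, and without a stated strand setting their reads cannot be told apart. *Mybpc1*, the slow-type myosin-binding protein C, had 237, 63.6 and 133 CPM in MyoD-tdTomato low and 913, 344 and 526 CPM in MyoD-tdTomato high and was not called (log2 fold change -2.04, SE 0.44, adjusted p = 0.0133, blocked adjusted p = 9.44e-08). Genes of other proteins overlap *Obsl1* (*Tmem198*), *Tmod1* (*Tstd2*), *Smyd1* (*Krcc1*), *Nrap* (*Habp2*) and *Myom1* (*Myl12a*) on the opposite strand, and part of their counts is uncertain in the same way.

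The M-band genes *Myom1*, *Myom2* and *Myom3* encode myomesins, which crosslink thick filaments. *Myom3*, the most abundant of them by TPM in MyoD-tdTomato high (152 ± 26.7 TPM, SD, n = 3, against 88.1 ± 38.01 TPM for *Myom2* and 30.3 ± 12.2 TPM for *Myom1*), had 9.88, 15.5 and 7.55 CPM in the QSCs libraries, 71.6, 48.6 and 86.97 CPM in MyoD-tdTomato low and 409, 276 and 390.0 CPM in MyoD-tdTomato high. Its groups were apart in all 3 comparisons (chr4:135487026-135542875, plus strand; 5.18-fold lower in low than high, log2 fold change -2.37, SE 0.27, adjusted p = 0.00131). *Myom1* was also called, at 18.8, 4.76 and 10.9 CPM in MyoD-tdTomato low and 131, 52.6 and 90.4 CPM in MyoD-tdTomato high (log2 fold change -2.99, SE 0.47, adjusted p = 0.00327). *Myom2* had 6.88, 21.9 and 19.3 CPM in the QSCs libraries, 41.6, 6.86 and 23.9 CPM in MyoD-tdTomato low and 282, 108 and 182 CPM in MyoD-tdTomato high. Its difference between low and high was as large as that of *Myom1* but missed the threshold (log2 fold change -2.98, SE 0.61, adjusted p = 0.0105, blocked adjusted p = 0.00932).

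Of the Z-disc core proteins, 5 of 10 tested members were lower in MyoD-tdTomato low (median log2 fold change -2.74). *Actn3*, the α-actinin of fast fibres, had 120.0, 173 and 157 CPM in the QSCs libraries, 211, 66.4 and 115 CPM in MyoD-tdTomato low and 722, 367 and 489.6 CPM in MyoD-tdTomato high. Its sarcomeric partner *Actn2* had 12.3, 24.1 and 32.9 CPM in the QSCs libraries, 81.6, 15.6 and 54.3 CPM in MyoD-tdTomato low and 543, 234 and 399.5 CPM in MyoD-tdTomato high. Both genes were lower in low than high, *Actn3* by 4.02-fold (log2 fold change -2.01, SE 0.38, adjusted p = 0.00698) and *Actn2* by 7.76-fold (log2 fold change -2.96, SE 0.56, adjusted p = 0.00694, blocked adjusted p = 0.0139). *Ldb3*, also known as Cypher or ZASP, binds α-actinin and had 62.98, 20.3 and 56.1 CPM in MyoD-tdTomato low and 492, 236 and 369 CPM in MyoD-tdTomato high (log2 fold change -2.98, SE 0.44, adjusted p = 0.00243). *Pdlim3*, a PDZ-LIM protein that also binds α-actinin, was 6.74-fold lower in MyoD-tdTomato low, at 46.9, 16.6 and 36.6 CPM in MyoD-tdTomato low and 298, 151 and 227 CPM in MyoD-tdTomato high (log2 fold change -2.75, SE 0.45, adjusted p = 0.0036). *Csrp3*, muscle LIM protein, was the fifth called, with 6.75, 1.67 and 3.8 CPM in MyoD-tdTomato low and 51.00, 21.2 and 38.8 CPM in MyoD-tdTomato high (log2 fold change -3.18, SE 0.53, adjusted p = 0.00412). *Tcap*, or telethonin, caps the titin ends at the Z-disc and had 8.18, 14.3 and 19.1 CPM in the QSCs libraries, 7.64, 1.1 and 3.84 CPM in MyoD-tdTomato low and 44.05, 16.5 and 23.6 CPM in MyoD-tdTomato high. Its low libraries all lay below the high ones, and it was not called (log2 fold change -2.74, SE 0.61, adjusted p = 0.016, blocked adjusted p = 2.08e-05).

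The calsarcins, Z-disc proteins that bind calcineurin, had low counts and differed from one another. *Myoz1* (chr14:20699175-20706608, minus strand) had 4.5, 12.5 and 10.04 CPM in the QSCs libraries, 0.533, 0.462 and 0.539 CPM in MyoD-tdTomato low and 0.899, 0.490 and 0.550 CPM in MyoD-tdTomato high. The cultured groups overlapped (log2 fold change -0.33, SE 0.49, adjusted p = 0.772), and the raw counts were 13 to 16 in the low libraries and 14 to 23 in the high ones, so that little could be told at this depth. *Myoz2* had raw counts of 0, 0 and 8 in QSCs, 71, 16 and 55 in MyoD-tdTomato low and 468, 172 and 320 in MyoD-tdTomato high (blocked adjusted p = 1.06e-07 for low against high). *Myoz3* had 2, 43 and 21 counts in QSCs, 0 in each MyoD-tdTomato low library and 0, 0 and 6 in MyoD-tdTomato high. *Myoz2* thus had its highest counts in MyoD-tdTomato high, and *Myoz1* and *Myoz3* in QSCs. The share of *Myoz3* counts expected from the receptor background was 309%, 31.3% and 33.0% in the QSCs libraries, and that of *Myoz1* 3.52%, 5.88% and 2.15%. *Pdlim5* and *Pdlim7*, PDZ-LIM proteins also made outside striated muscle, had log2 differences nearer to 0 than the Z-disc median, at -0.30 and -0.66, and were not called. *Pdlim7* was called with the replicate block (blocked adjusted p = 2.69e-06). *Myot*, or myotilin, had 3.41, 8.75 and 7.63 CPM in the QSCs libraries, 1.92, 0.142 and 1.41 CPM in MyoD-tdTomato low and 11.7, 4.62 and 6.95 CPM in MyoD-tdTomato high and was not called (log2 fold change -2.74, SE 0.72, adjusted p = 0.0331, blocked adjusted p = 0.000104).

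**Figure D2:**
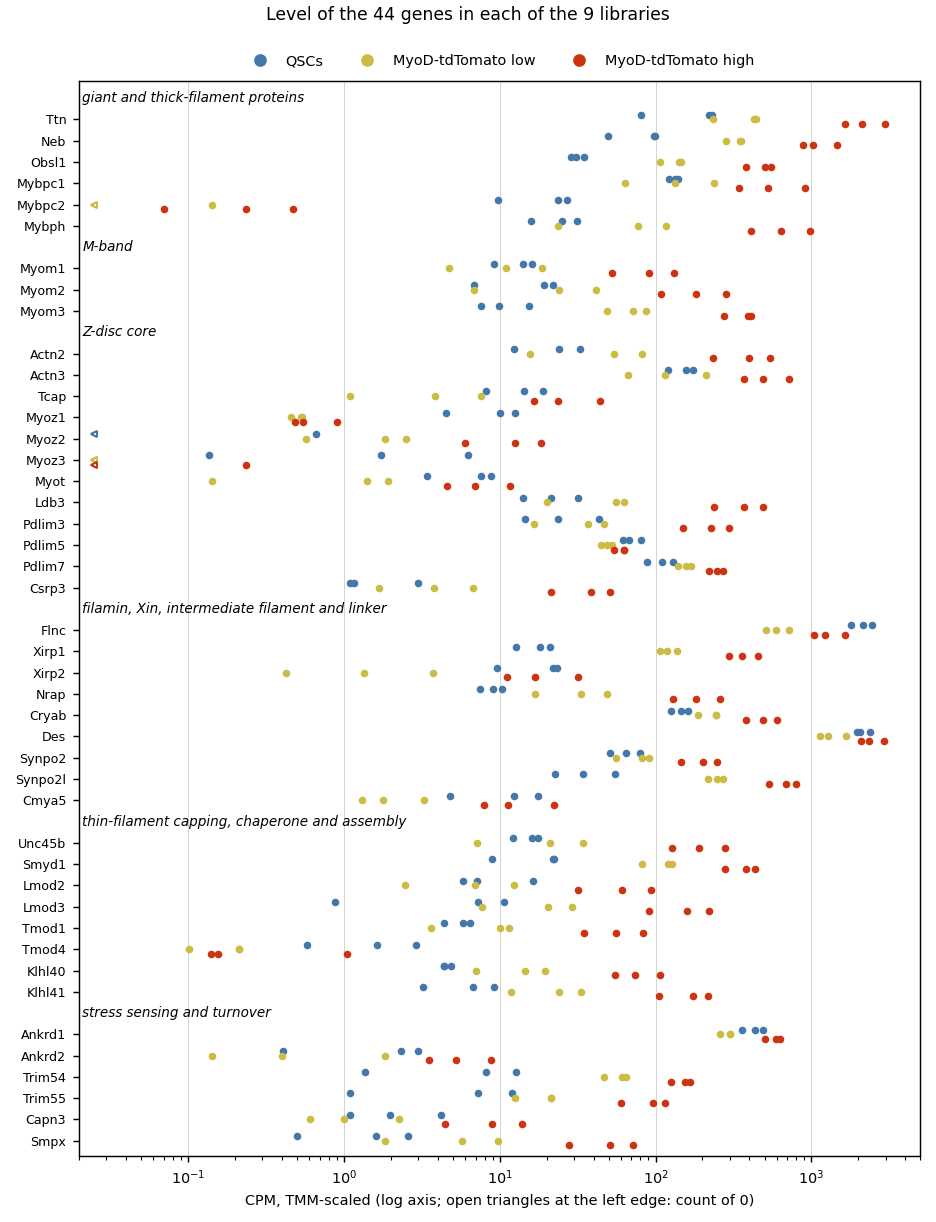
Level of each of the 44 genes (CPM after TMM scaling, log axis) in each library, grouped by role; each point is 1 library and open triangles mark a count of 0. MyoD-tdTomato high points lie to the right of MyoD-tdTomato low points for nearly all genes, while Flnc, Myoz1 and Mybpc2 are highest in QSCs.

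The filamin, Xin, intermediate filament and linker group held *Des*, the most abundant member, and 7 of its 9 members were lower in MyoD-tdTomato low. *Flnc*, filamin C, which crosslinks actin at the Z-disc (chr6:29433255-29461882, plus strand), had 2435, 1804 and 2144 CPM in the QSCs libraries, 713, 512 and 594 CPM in MyoD-tdTomato low and 1649, 1035 and 1221 CPM in MyoD-tdTomato high. The 3 groups did not overlap, with MyoD-tdTomato low the lowest and QSCs the highest (log2 fold change -1.10, SE 0.19, adjusted p = 0.00487 for low minus high). *Xirp1*, a Xin repeat protein that binds filamin C (chr9:119842821-119852664, minus strand), had 12.7, 21.1 and 18.3 CPM in the QSCs libraries, 106, 137 and 118 CPM in MyoD-tdTomato low and 452, 295 and 357 CPM in MyoD-tdTomato high. It rose stepwise from QSCs to low to high (log2 fold change -1.61, SE 0.20, adjusted p = 0.0014, blocked adjusted p = 0.0132). *Xirp1* overlaps *Cx3cr1* on the same strand, which had at most 54 counts in a library. *Xirp2*, the other Xin protein, followed another order, with 9.54, 23.5 and 21.8 CPM in the QSCs libraries, 3.73, 0.426 and 1.35 CPM in MyoD-tdTomato low and 31.97, 11.1 and 16.97 CPM in MyoD-tdTomato high. MyoD-tdTomato low was lowest for *Xirp2* and its libraries ranged 8.75-fold among themselves (log2 fold change -3.44, SE 0.69, adjusted p = 0.00916). This call was lost in 14 of the 21 other settings, among them 8 of the 9 fits with 1 library left out.

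*Nrap*, a scaffold of the early α-actinin precursors, had 8.998, 7.44 and 10.3 CPM in the QSCs libraries, 48.9, 16.9 and 33.3 CPM in MyoD-tdTomato low and 259, 129 and 182 CPM in MyoD-tdTomato high (log2 fold change -2.52, SE 0.36, adjusted p = 0.00207 for low minus high). *Synpo2l*, an actin-bundling synaptopodin relative, had 22.7, 55.1 and 34.02 CPM in the QSCs libraries, 248, 218 and 271 CPM in MyoD-tdTomato low and 793, 537 and 689 CPM in MyoD-tdTomato high (log2 fold change -1.45, SE 0.26, adjusted p = 0.00585). Its relative *Synpo2*, or myopodin, was 2.59-fold lower in low, at 91.3, 55.9 and 82.4 CPM in MyoD-tdTomato low and 249, 146 and 200.5 CPM in MyoD-tdTomato high (log2 fold change -1.37, SE 0.24, adjusted p = 0.0049). *Cryab*, the small heat shock protein αB-crystallin that binds desmin, had 126, 146 and 162 CPM in the QSCs libraries, 244, 188 and 244 CPM in MyoD-tdTomato low and 601, 382 and 487 CPM in MyoD-tdTomato high (log2 fold change -1.12, SE 0.17, adjusted p = 0.00298). Each of these 4 genes had its low libraries under its high ones. *Cryab* overlaps *Hspb2* on the other strand, so reads in the overlap cannot be assigned to either. *Des*, desmin, the intermediate filament around Z-discs, was the most abundant member by TPM in every group, at 1053 ± 169 TPM in QSCs, 1168 ± 198 TPM in MyoD-tdTomato low and 1903 ± 276 TPM in MyoD-tdTomato high (SD, n = 3). On the CPM scale *Des* had 2363, 1946 and 2039 CPM in the QSCs libraries, 1677, 1138 and 1279 CPM in MyoD-tdTomato low and 2905, 2072 and 2338 CPM in MyoD-tdTomato high. The low libraries lay under the high ones, with a small difference that was not called (log2 fold change -0.84, SE 0.17, adjusted p = 0.0106, blocked adjusted p = 2.37e-07). *Cmya5*, or myospryn, had 4.77, 17.6 and 12.4 CPM in the QSCs libraries, 3.27, 1.31 and 1.78 CPM in MyoD-tdTomato low and 22.4, 7.9 and 11.3 CPM in MyoD-tdTomato high. It was not called (log2 fold change -2.70, SE 0.56, adjusted p = 0.0109). With the block it was called in the cultured libraries alone (blocked adjusted p = 5.64e-08) but not in all libraries.

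All but *Tmod4* of the 8 thin-filament capping, chaperone and assembly genes were lower in MyoD-tdTomato low (median log2 fold change -2.81). *Unc45b*, the muscle myosin chaperone, had 17.5, 12.2 and 16.2 CPM in the QSCs libraries, 34.3, 7.14 and 20.9 CPM in MyoD-tdTomato low and 278, 128 and 190.0 CPM in MyoD-tdTomato high. It was 9.54-fold lower in low than high (log2 fold change -3.25, SE 0.48, adjusted p = 0.00243). *Smyd1*, a methyltransferase that works with that chaperone pathway, had 8.93, 22.3 and 21.8 CPM in the QSCs libraries, 120.3, 82.2 and 128 CPM in MyoD-tdTomato low and 435, 280.0 and 383 CPM in MyoD-tdTomato high. Unlike *Unc45b*, for which QSCs overlapped the low libraries, *Smyd1* was lower in every QSCs library than in every low one (log2 fold change -1.73, SE 0.30, adjusted p = 0.00488 for low minus high). *Lmod3*, a leiomodin that nucleates actin, had 7.23, 0.875 and 10.7 CPM in the QSCs libraries, 29.2, 7.75 and 20.3 CPM in MyoD-tdTomato low and 219, 91.1 and 160.0 CPM in MyoD-tdTomato high (log2 fold change -3.04, SE 0.60, adjusted p = 0.0085), and its expected background in QSCs replicate 2 exceeded its count, at 145%. *Klhl41*, a Kelch protein that stabilises nebulin and whose promoter is printed above, had 3.2, 6.71 and 9.21 CPM in the QSCs libraries, 33.3, 11.9 and 24.1 CPM in MyoD-tdTomato low and 219, 105 and 173 CPM in MyoD-tdTomato high (log2 fold change -2.84, SE 0.42, adjusted p = 0.00251). The related *Klhl40* was 5.74-fold lower in MyoD-tdTomato low, the leiomodin *Lmod2* 8.54-fold and the pointed-end capping protein *Tmod1* 6.89-fold, each called. The low libraries of these 7 genes all lay under the high ones. *Tmod4*, the skeletal muscle tropomodulin, stayed at or under 1.06 CPM in every cultured library, and its groups overlapped (log2 fold change -1.33, SE 0.92, adjusted p = 0.452). Its sign turned without MyoD-tdTomato high replicate 1 (log2 fold change 0.25).

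Only 2 of the 6 stress sensing and turnover genes were called between the cultured groups, *Ankrd1* and *Smpx*. *Ankrd1*, a titin-binding ankyrin repeat protein also made outside sarcomeres, had 432, 489.8 and 356 CPM in the QSCs libraries, 259.9, 299 and 302 CPM in MyoD-tdTomato low and 627, 505 and 595 CPM in MyoD-tdTomato high. Its low libraries were nearly alike, within 1.16-fold, and all under the high ones (log2 fold change -1.005, SE 0.14, adjusted p = 0.00177). *Smpx*, a small muscle protein coded on the X chromosome, had 2.59, 1.6 and 0.498 CPM in the QSCs libraries, 9.74, 1.85 and 5.76 CPM in MyoD-tdTomato low and 71.3, 27.8 and 50.8 CPM in MyoD-tdTomato high (log2 fold change -3.11, SE 0.59, adjusted p = 0.0074). *Trim54* and *Trim55*, the ubiquitin ligases MuRF3 and MuRF2, had log2 fold changes of -1.37 and -2.30 and missed the threshold (adjusted p = 0.0826 and 0.0192). Both were called in the fit of the cultured libraries alone with the replicate block (blocked adjusted p = 1.84e-08 and 2.38e-09). A fit of those libraries without the block also called both, and the block on all libraries called neither. The titin-binding protease *Capn3* and the ankyrin repeat protein *Ankrd2* were at or under 2.27 CPM in all low libraries, and their adjusted p was 0.0176 and 0.0639 (blocked adjusted p = 3.74e-07 and 6.27e-05).

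The members varied together among libraries of one group. MyoD-tdTomato high replicate 1 was the highest high library for all 41 tested members and replicate 2 the lowest for all 41, against 37.4% and 38.4% of all genes. In MyoD-tdTomato low, replicate 2 was lowest for 37 of 41, against 36.4% of all genes, and replicate 1 highest for 31, against 41.6%. The libraries numbered 2 were thus low in both cultured groups, and the log2 ratio of high to low within one number was above 0 for all 41 members in numbers 1 and 3 and for all but *Tmod4* in number 2. For *Obsl1* that ratio was 1.95, 1.82 and 1.80, and for *Ttn* 2.74, 2.82 and 2.29. The differentiation markers, a list of 9 genes that includes *Myog*, moved with the members, with a sum of 2257, 563 and 1637 CPM in the low libraries against 16547, 7985 and 12437 CPM in the high libraries, and none of the 9 was at 0 in any library. All 9 were called lower in MyoD-tdTomato low, and their part in the result was not tested.

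Genes with larger differences between the cultured groups also spread more within MyoD-tdTomato low. Over the 38 members with a mean of at least 1 CPM there, the size of the log2 fold change and the log2 ratio of the highest to the lowest low library correlated across genes (Pearson r = 0.82, Spearman rho = 0.86). The genes share their libraries and the low libraries enter both measures, so this is a description. The 21 of these members past a log2 fold change of -2.5 ranged by a median of 3.94-fold among low libraries, from 1.89-fold for *Ttn* to 13.5-fold for *Myot*. The other 17 ranged by a median of 1.39-fold, with *Ankrd1* at 1.16-fold, *Neb* at 1.25-fold and *Synpo2l* at 1.24-fold. *Neb*, *Obsl1*, *Xirp1*, *Synpo2l*, *Smyd1* and *Cryab* ranged at most 1.56-fold in MyoD-tdTomato low. *Myot*, *Xirp2* and *Ankrd2*, the last not among the 38, ranged 8.75-fold or more. Their raw counts in MyoD-tdTomato low replicate 2 were only 4, 12 and 4, so these wide ranges are uncertain.

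**Figure D3:**
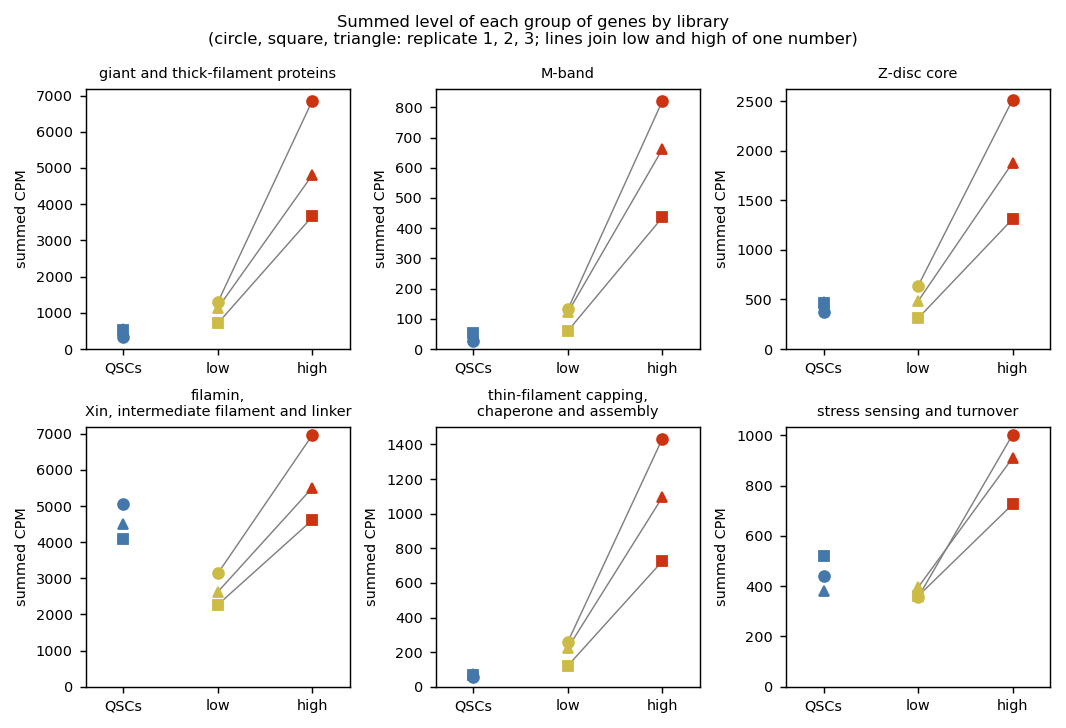
Summed CPM of each group of genes in each library (marker shape, replicate number; lines join cultured libraries of one number). Each line rises from low to high; in the filamin, Xin and linker panel the QSCs, at 4100.4 to 5047 CPM, lie above MyoD-tdTomato low, at 2268 to 3136 CPM.

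The second comparison set QSCs against MyoD-tdTomato high. QSCs had lower levels of 29 of the 41 tested members and higher levels of *Myoz1* and *Flnc*, with a median log2 fold change of -3.36 against 0.022 over all genes. The call rate over all genes was 51.1%, with 26.4% higher in QSCs and 24.6% lower. The QSCs libraries all lay under the high ones for 32 members and above them for 2, against 35.0% and 33.5% of all genes. All 5 tested giant and thick-filament genes, the 3 myomesins and 7 of the 8 capping, chaperone and assembly genes were lower in QSCs. The largest falls among called members were those of *Myom3* (33.5-fold lower, log2 fold change -5.07, SE 0.31, adjusted p = 2.65e-07), *Smpx* (log2 fold change -4.96, SE 0.70, adjusted p = 0.000104), *Mybph* (log2 fold change -4.83, SE 0.57, adjusted p = 3.01e-05) and *Klhl41* (log2 fold change -4.72, SE 0.49, adjusted p = 1.07e-05). *Myom2* (log2 fold change -3.60, SE 0.65, adjusted p = 0.000582) and *Actn3* (log2 fold change -1.81, SE 0.38, adjusted p = 0.00152) were also lower in QSCs, whereas *Tcap* was not called (log2 fold change -1.02, SE 0.58, adjusted p = 0.144), and its groups overlapped. Of the 31 calls, 28 held in every setting tried. The exceptions were *Flnc*, *Lmod2* and *Actn3*, and *Actn3* was lost without QSCs replicate 1 alone (adjusted p = 0.0101). *Lmod2* was lost without QSCs replicate 1 or 3 or MyoD-tdTomato high replicate 1 (adjusted p from 0.0105 to 0.0143).

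*Myoz1* exceeded its level in MyoD-tdTomato high by 13.8-fold in QSCs (log2 fold change 3.79, SE 0.49, adjusted p = 5.99e-05) and that in MyoD-tdTomato low by 17.4-fold (log2 fold change 4.12, SE 0.50, adjusted p = 3.99e-05), at 4.5, 12.5 and 10.04 CPM in the QSCs libraries, 66, 86 and 121 raw counts. *Flnc* was 1.64-fold higher in QSCs than in high (log2 fold change 0.71, SE 0.19, adjusted p = 0.00711), a call that 10 other settings did not keep, among them omission of QSCs replicate 1 or 3 or of MyoD-tdTomato high replicate 2 or 3 (adjusted p from 0.0196 to 0.0339). On the TPM scale, where the median of all genes fell by 0.59, *Flnc* differed by 0.06 between QSCs and high, with an adjusted p of 0.745 from limma. *Mybpc2*, the fast-type myosin-binding protein C, had raw counts of 143, 185 and 284 in QSCs, 4, 0 and 0 in MyoD-tdTomato low and 12, 2 and 6 in MyoD-tdTomato high. It failed the filter on counts of 0, and the 7.65% of its counts expected from background in QSCs replicate 2 was its highest share. Among the mature myofibre markers, *Pvalb* of fast fibres had 20.6, 37.6 and 51.9 CPM in the QSCs libraries, 0.142, 0.0711 and 0.202 CPM in MyoD-tdTomato low and 2.03, 0.629 and 1.53 CPM in MyoD-tdTomato high. *Myh1*, another fast fibre gene, was lower in QSCs than in high, with 54.6, 146 and 136 CPM in the QSCs libraries, 344, 53.98 and 183 CPM in MyoD-tdTomato low and 2655, 1139 and 1758 CPM in MyoD-tdTomato high.

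The last comparison set QSCs against MyoD-tdTomato low. Members were called in both directions here, as were all genes. Of the 16 called members 5 were higher in QSCs, against 54.0% of all called genes. *Myoz1*, *Xirp2*, *Cmya5*, *Flnc* and *Des* were higher in QSCs, 11 were lower and 25 of 41 were not called, with a median log2 fold change of -0.58 against 0.075 over all genes. The call rate over all genes was 49.1%, with 26.5% higher in QSCs and 22.6% lower. The QSCs libraries all lay under the low ones for 14 members and above them for 10, against 32.7% and 34.4% of all genes. The genes lower in QSCs were *Neb*, *Obsl1*, *Myom3*, *Xirp1*, *Nrap*, *Cryab*, *Synpo2l*, *Smyd1*, *Klhl40*, *Klhl41* and *Trim54*. *Trim54* had 1.36, 8.17 and 12.8 CPM in QSCs against 60.6, 46.6 and 64.9 CPM in low (log2 fold change -2.98, SE 0.51, adjusted p = 0.000468). *Xirp1* (log2 fold change -2.81, SE 0.21, adjusted p = 1.34e-06), *Synpo2l* (log2 fold change -2.74, SE 0.28, adjusted p = 1.11e-05) and *Myom3* (log2 fold change -2.69, SE 0.29, adjusted p = 1.6e-05) followed in size, each with no overlap. These 11 transcripts were more abundant in the cultured low cells.

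Of the 5 genes higher in QSCs than in low, *Flnc* kept its call in every setting (3.51-fold, log2 fold change 1.81, SE 0.20, adjusted p = 1.63e-05). *Xirp2* was 9.88-fold higher (log2 fold change 3.31, SE 0.69, adjusted p = 0.0016) and *Cmya5* 5.4-fold (log2 fold change 2.43, SE 0.56, adjusted p = 0.00312). The background expected from receptor genes was 16.4%, 31.1% and 9.79% of *Xirp2* counts and 30.5%, 38.4% and 15.9% of *Cmya5* counts in the QSCs libraries. With that background subtracted, *Cmya5* was no longer called (log2 fold change 2.08, adjusted p = 0.0108), nor was it without QSCs replicate 2 or 3 or MyoD-tdTomato low replicate 2 or 3 (adjusted p from 0.0106 to 0.0157) or on the TPM scale, and *Xirp2* stayed called in each of these. *Des* was 1.55-fold higher on the CPM scale (log2 fold change 0.63, SE 0.17, adjusted p = 0.00786) but 0.15 lower in log2 TPM, where the median of all genes fell by 0.67, and was not called there. *Tcap* (log2 fold change 1.72, SE 0.61, adjusted p = 0.0281), *Actn3* (log2 fold change 0.19, SE 0.37, adjusted p = 0.659) and *Myom2* (log2 fold change -0.62, SE 0.61, adjusted p = 0.387) were not called, and the signs of *Actn3* and *Myom2* changed with the setting. Of the 16 calls, 11 held in every setting, namely *Neb*, *Obsl1*, *Myom3*, *Myoz1*, *Flnc*, *Xirp1*, *Xirp2*, *Nrap*, *Synpo2l*, *Smyd1* and *Trim54*. The calls of *Cryab*, *Klhl40*, *Klhl41* and *Des* were each lost without QSCs replicate 1 or without MyoD-tdTomato low replicate 3, among other libraries (adjusted p at most 0.0333, 0.018, 0.021 and 0.0417).

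**Figure D4:**
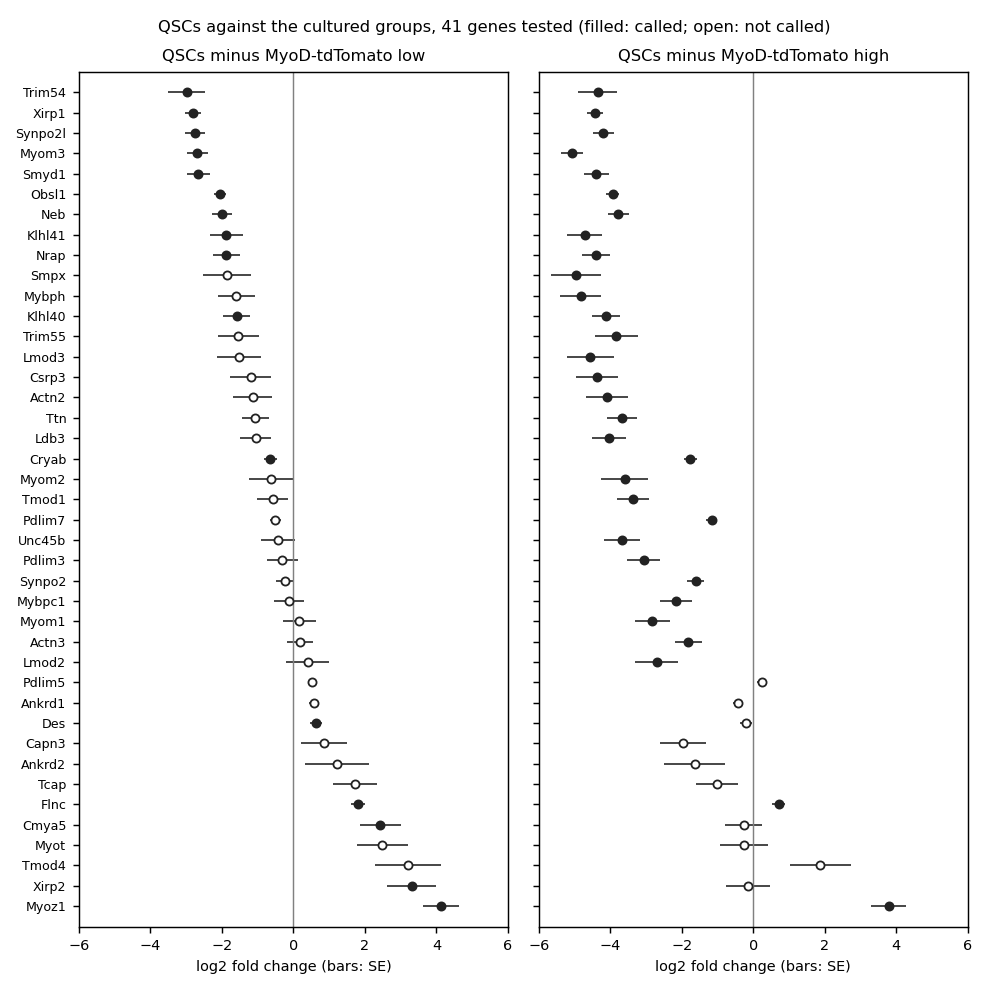
Log2 fold change (x axis; bars, SE) of QSCs minus MyoD-tdTomato low (left) and QSCs minus MyoD-tdTomato high (right) for the 41 members tested, in the order of the left panel; filled points passed the call. Both panels use the same QSCs libraries. Myoz1 is highest on both sides, at 4.12 and 3.79, and Trim54 lowest on the left, at -2.98.

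Mature myofibre markers also differed in both comparisons of QSCs. Against MyoD-tdTomato high their median log2 fold change was -1.09, and that of the members -3.359. Against MyoD-tdTomato low the medians had opposite signs, at 1.25 for the markers and -0.575 for the members. Of 13 such genes, none at 0 in any library, QSCs had 6 higher and 1 lower when set against MyoD-tdTomato low but 2 higher and 5 lower when set against MyoD-tdTomato high, and their sum was 372, 855 and 935 CPM in QSCs, 1306, 729 and 957 CPM in low and 5747, 2958 and 4111 CPM in high. Among members, QSCs replicate 1 was lowest of the QSCs libraries for 24 of 41 and replicate 2 highest for 19, against 28.4% and 34.6% of all genes. The expected background reached 25% of the count or more for 5 members in QSCs replicate 1, 14 in replicate 2 and 5 in replicate 3, among them *Capn3* and *Myoz3* in every one. Of 10 pericyte and smooth muscle markers, 8 were tested, with 3 higher and 3 lower in QSCs against high and 4 higher and 2 lower against low, and the others, *Cnn1* and *Kcnj8*, were at 0 in at least 1 cultured library. These markers summed to 1079.7 to 1121 CPM in QSCs, 537 to 1077 in low and 1443 to 2661 in high. Among them *Myh11*, *Rgs5* and *Tagln*, picked after their values were seen, exceeded both cultured groups in QSCs. *Flnc* had this direction in both comparisons and *Des* in that against low. The 3 markers called lower in QSCs than in high and the 2 called lower than in low went the other way. Over the 8 tested, the median log2 fold change of QSCs was 0.33 against high, from -2.38 to 6.4. Against low it was 1.21, from -2.53 to 4.84. *Tagln* had 249, 341 and 348 CPM in the QSCs libraries, 40.3, 31.98 and 39.4 CPM in MyoD-tdTomato low and 24.5, 17.9 and 24.8 CPM in MyoD-tdTomato high, and *Myh11* had 49.6, 33.98 and 40.5 CPM in the QSCs libraries, 1.42, 1.74 and 1.41 CPM in MyoD-tdTomato low and 0.117, 0.664 and 0.668 CPM in MyoD-tdTomato high. The part of these markers and of the background in the results was not tested. With the background subtracted, 32 members were called between QSCs and high and 16 between QSCs and low, against 31 and 16 without. *Capn3* was gained in the former, while the latter lost *Cryab* and *Cmya5* and gained *Pdlim5* and *Ankrd1*. By the order of the group means in CPM, whether or not libraries overlapped, 27 members ran upwards from QSCs through low to high. Another 11 were lowest in low and highest in high. The other 6 were lowest in low and highest in QSCs, namely *Mybpc2*, *Myoz1*, *Myoz3*, *Pdlim5*, *Flnc* and *Tmod4*. In mean TPM *Pdlim5* instead ran upwards, at 15.4 in QSCs, 18.3 in low and 20.5 in high. *Des*, *Ankrd1*, *Actn3*, *Myom1* and *Lmod2* were then lowest in QSCs. No member had its highest mean in MyoD-tdTomato low.

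Within families that also have a member outside striated muscle, the muscle members took a larger share of the family's TPM in MyoD-tdTomato high than in low. *Actn2* and *Actn3* held 24.9%, 7.83% and 15.4% of the TPM of the 4 α-actinins in the low libraries and 59.7%, 40.0% and 50.3% in the high ones, with 18.1%, 28.9% and 26.8% in QSCs. *Unc45b* held 23.2%, 6.87% and 17.8% of its pair with *Unc45a* in low, 72.1%, 54.1% and 66.4% in high and 8.21%, 8.19% and 7.11% in QSCs. The tropomodulins *Tmod1* and *Tmod4* were 14.1% ± 6.42 of 4 tropomodulins in low and 61.9% ± 13.8 in high (SD, n = 3), with 17.8% ± 3.15 in QSCs. None of these shares overlapped between low and high.

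In the pair of desmin and vimentin, QSCs had the largest share. *Des* made up 53.2%, 44.4% and 46.8% of desmin and vimentin in QSCs, 17.9%, 12.2% and 15.2% in low and 35.6%, 24.7% and 29.4% in high. *Smyd1* had its smallest share in QSCs, at 9.76% ± 5.36 of *Smyd1* and *Smyd2* in QSCs, 39.2% ± 7.64 in low and 65.3% ± 5.22 in high. Of the 8697 ± 2037 TPM that the 44 genes summed to in MyoD-tdTomato high, *Des*, *Flnc* and *Ankrd1* made up 33.6% ± 3.59. In QSCs these 3 genes were 75.3% ± 4.58 of 2265 ± 304 TPM and in MyoD-tdTomato low 51.3% ± 4.33 of 3324 ± 580.2 TPM (SD, n = 3).

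**Figure D5:**
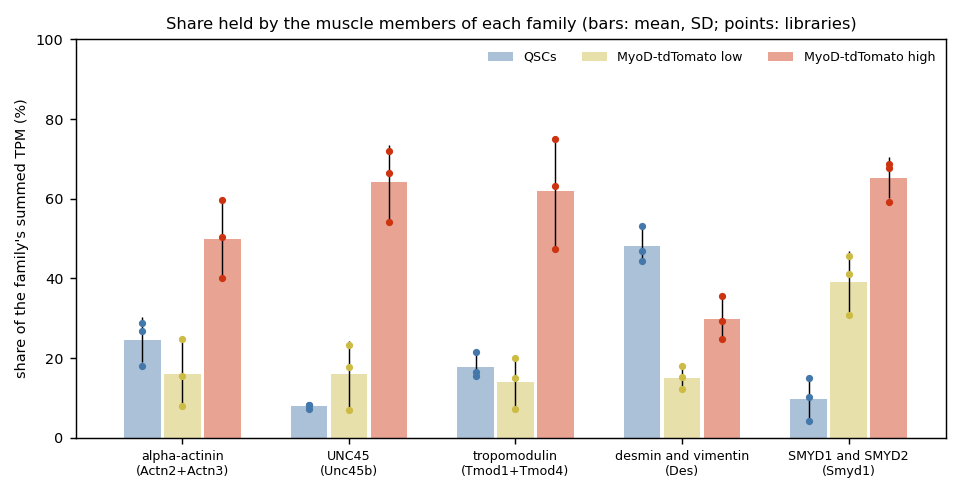
Share of each family's summed TPM (y axis, percent) held by its muscle members, named under each family; bars are means with SD, points are libraries. High bars exceed low bars in each of the 5 families, and for Des (48.1%) the QSCs bar is the tallest.

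Other sarcomere genes and the relatives outside muscle were compared as lists. Of 21 other sarcomere genes, 18 were tested and 10 were lower in MyoD-tdTomato low than in high, with none higher and a median log2 fold change of -1.34. *Bin1*, which shapes T-tubule membranes, had 78.9, 93.5 and 105 CPM in the QSCs libraries, 428, 298 and 369 CPM in MyoD-tdTomato low and 1171, 767 and 989 CPM in MyoD-tdTomato high (log2 fold change -1.42, SE 0.18, adjusted p = 0.00152). Of the other genes named from this list, *Hspb1*, a small heat shock protein, had 741, 560.1 and 731 CPM in the QSCs libraries, 318, 220.0 and 242 CPM in MyoD-tdTomato low and 641, 433 and 490.5 CPM in MyoD-tdTomato high and *Bag3* had 830.0, 564 and 559.9 CPM in the QSCs libraries, 200.3, 179 and 175 CPM in MyoD-tdTomato low and 239.6, 211 and 208 CPM in MyoD-tdTomato high. *Bag3*, which handles damaged filamin, was higher in QSCs than in high (log2 fold change 1.57, SE 0.16, adjusted p = 8.61e-06) and did not pass between low and high (log2 fold change -0.25, SE 0.15, adjusted p = 0.385). Of the 21 relatives outside muscle, 2 were higher and 1 lower in low, with a median log2 fold change that rounded to 0. *Vim*, vimentin, had 1524, 1786 and 1701 CPM in the QSCs libraries, 5628, 6023 and 5235 CPM in MyoD-tdTomato low and 3850.3, 4629 and 4113 CPM in MyoD-tdTomato high, the reverse order of *Des* between the cultured groups, and was not called (log2 fold change 0.42, SE 0.12, adjusted p = 0.0458). *Flna* (log2 fold change 0.46, SE 0.14, adjusted p = 0.0628) and *Actn4* (log2 fold change 0.16, SE 0.11, adjusted p = 0.446) were likewise not called.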

How the data were processed

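Bulk RNA sequencing of 9 libraries, 3 for each of the groups, was analysed, with groups taken from the sample labels. The authors made poly(A) libraries, mapped paired-end reads to GRCm39 and counted them in CLC Genomics Workbench at default settings, and deposited raw counts per gene and library with no normalization. The deposited TPM were computed by the authors in the same software. The annotation version and strand setting are not given in the sources used here. Another 18 per-sample columns of other units, and 24 columns of the authors' own comparisons (fold changes and p-values), were not used.

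The main test was the robust quasi-likelihood fit of edgeR 4.0.16 (R 4.3.3) with TMM factors and 1 coefficient per group over all 9 libraries. As in the study, only genes with at least 1 count in each library were kept. Calls required an adjusted p under 0.01 (Benjamini-Hochberg over 12614 genes) and a fold change over 1.5, tested two-sided. The SE is the log2 fold change over the root of its F value. Members and lists were chosen with earlier results of these data known. Genes named are the called members of highest mean CPM between the cultured groups (up to 20), the called members of largest change for QSCs, members with a count of 0, Tcap, Actn3, Mybpc2, Myoz1 and Myom2, and up to 3 genes of highest CPM per other list. Pvalb, Myh1, Myh11, Rgs5, Tagln, Pax7 and the remaining members were named after their values were seen.

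Alternatives covered the scaling (RLE, upper quartile), the filter (filterByExpr, none), the tool (DESeq2 1.42.0, or limma 3.58.1 on log2 TPM with 1 or 0.1 added), a fit without the group not compared, a threshold of 0.05, a block for the replicate number, and omission of each library. Subtraction of the background seen on receptor genes was chosen after seeing the data. As a pairing check, deviations from the group mean in the cultured libraries were correlated between same-numbered samples, which gave 0.441, 0.428 and 0.178 across genes. Unlike numbers gave -0.428 to 0.013. The sources state no pairing of these groups, so the main fit and the fits without 1 library used no block. QSCs correlated with cultured libraries of the same number at -0.046 to 0.013 and were not paired. No library duplicated another. On data simulated for MyoD-tdTomato low against high over 12614 genes, the test recovered 29% of changes of 2-fold and 71% of those of 4-fold. Sequences came from the RefSeq promoter table of GRCm38.p6, and gene positions from the deposited table. A gene of the list of relatives outside muscle is not reported here.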

Additional observations from a re-analysis of the deposited data

How the results depend on the processing

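Between MyoD-tdTomato low and high, 27 members were called, against 17 with no filter on low counts and 12 with only those libraries in the fit and no replicate block. Leaving out 1 library, without the block, gave 3 to 30. The replicate block gave 27 in a fit of all libraries, with 24 shared, and 36 in a fit of the cultured libraries. DESeq2 called 35, an adjusted p of 0.05 gave 36, and limma on TPM 26 and 20. The cause of these differences was not tested. Between QSCs and MyoD-tdTomato high the count stayed at 28 to 34 under all alternatives, and between QSCs and MyoD-tdTomato low at 11 to 23, with 11 to 18 when 1 library was left out and 19 with the replicate block on all libraries. For MyoD-tdTomato low against high, the block in the cultured libraries changed no call other than those given above. On the TPM scale all genes shifted, with a median of -0.59 and -0.69 for QSCs against high (pseudocounts 1 and 0.1), -0.67 and -0.76 for QSCs against low and 0.11 and 0.13 for low against high. The share of called genes that were higher in QSCs went there from 51.8% to 23.8% and 24.5% against high and from 54.0% to 20.8% and 21.4% against low. For low against high the share higher in low was 24.0%, and 37.7% with DESeq2, 34.6% with upper-quartile scaling and 41.9% with the replicate block on the cultured libraries. For QSCs against low, *Actn3*, at 0.19, turned to -0.45 with limma on log2(TPM + 1) and to -0.46 with log2(TPM + 0.1). Leaving out 1 library, it ran from -0.13 to 0.71 and *Myom2* from -1.07 to 0.018. Depth limits *Myoz1*, *Tmod4*, *Capn3* and *Ankrd2*, at a few CPM or less in some libraries, and QSCs replicate 2, at 7514633 counts, is the shallowest.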
